A study of Mus musculus with 19 samples.

Results

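G protein-coupled receptors that span the membrane in 7 helices and still lack an agreed ligand are called orphan receptors, and many keep the gene symbol Gpr with a number. Adhesion receptors are a class of their own, with a long extracellular stretch that is cut next to the membrane and binds matrix or partner cells. In the brain both kinds sit on neurons and on glia, where several act in myelination and in the setting of cyclic AMP. Members were chosen by symbol alone, as rows of both count tables whose name is Adgr with a letter and a number, or Gpr with a number and at most a letter. The rule found 89 of 20436 genes, of which 0 carried an Adgr symbol, because the tables use the older names. Of the 89, 16 were adhesion receptors under such names, for example Gpr56 (now Adgrg1), Gpr123 (Adgra1), Gpr124 (Adgra2) and Gpr125 (Adgra3). The brain adhesion receptors Bai1 to Bai3, Lphn1 to Lphn3 and Celsr1 to Celsr3 fall outside the rule and are given only as relatives. Some members are Gpr by name alone, such as the lysosomal cholesterol sensor Gpr155 and the Golgi proteins Gpr89 and Gpr107.

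The libraries came from hippocampal slices of wild-type male mice aged 28 to 42 days by the labels, kept for 5 min in vehicle (basal) or in DHPG at 100 µM, an agonist of the group I metabotropic glutamate receptors. All slices, basal ones included, then received cycloheximide at 100 µg/ml, which stops elongating ribosomes. Slices of 6 mice were pooled per replicate, so that a value stands for whole slice tissue of pooled animals and not for a cell type, and fewer cells of a type cannot be told apart from less RNA per cell. RNA-seq was done on 4 basal and 5 DHPG replicates. Ribosome profiling was done on 5 replicates of each and gave ribosome-protected fragments (RPFs), the pieces of mRNA shielded by a ribosome. DHPG RNA replicate 5 had no basal partner, so that the RNA comparison had 4 pairs. An RNA library held 4870813 to 7793244 counts, an RPF library 5692064 to 22092434. Levels are library-scaled counts (CPM) adjusted by edgeR's TMM factors, and levels of different genes are compared per kb of transcript (RNA) or of coding sequence (RPF). The 8 markers of hippocampal excitatory neurons were detected in every group, with summed RPF levels of 5087 to 5979 CPM in the basal libraries. Camk2a, 1 of the 8, alone had 3211 to 4157 CPM there, so that this sum mostly reports 1 gene in RPF. In contrast, 7 of 8 choroid plexus markers were under 1 CPM. Replicate 4 stood apart in oligodendrocyte markers. The sum of 8 was 4438 CPM in its basal RPF library against 8012 to 9368 CPM in the other basal RPF libraries. The microglial marker sum was lowest there too (329 CPM against 378 to 489 CPM). The astrocyte marker sum was within the range of the others (2238 CPM against 2217 to 2655 CPM).

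About as many receptors were expressed as genes in general. A gene was called expressed where its counts were high enough to be tested (edgeR's filterByExpr). In RNA, 57 of the 89 receptors (64.0%) passed, beside 63.3% of all genes, and in RPF 59 (66.3%), beside 64.6%. Both filters passed 54 receptors, and 27 passed neither. The 27 had at most 79 RNA counts and 50 RPF counts summed over all libraries, and 6 receptors had 0 RPF counts in every library. They included most receptors of immune cells in the list, among them Gpr18, Gpr35, Gpr55, Gpr171 and Gpr174, the retinal class C receptor Gpr179, and the adhesion receptors Gpr97, Gpr110 and Gpr128. Gpr4, Gpr111 and Gpr157 passed in RNA only. Gpr1, Gpr64, Gpr139, Gpr151 and Gpr182 passed in RPF only. Gpr139 and Gpr151 are known from the habenula, and in the basal RPF libraries Gpr139 had 1.67 to 2.41 CPM and Gpr151 1.16 to 1.55 CPM.

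A few receptors held a large share of the receptors' ribosome footprints. Together the 89 held 0.121% to 0.140% of all RPF counts in a basal library and 0.215% to 0.275% of all basal RNA counts. Of their RPF counts, 46.7% belonged to 5 receptors, and 26 receptors reached at least 10 CPM in every basal RPF library. Gpr37, a receptor of oligodendrocytes that holds back myelination, was highest per coding kb in RPF, at 69.6 ± 9.54 CPM per kb (SD, n = 5). Gpr56, an adhesion receptor of oligodendrocyte precursors, progenitors and microglia that binds matrix collagen, followed at 65.9 ± 8.63 CPM per kb. Next stood Gpr17 (53.1 ± 15.1 CPM per kb), which marks oligodendrocyte precursors about to mature, and Gpr158 (52.0 ± 3.25 CPM per kb), a class C receptor of neurons that holds the regulator RGS7 at the membrane. The class A orphans Gpr22 and Gpr26, both found mainly in neurons within the brain, had 48.6 ± 7.14 and 41.7 ± 3.15 CPM per kb. Each of these 6 overlaps its neighbour in this order within the SDs. Even Gpr37 stood only at the percentile 80.5 of all genes tested in RPF.

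**Figure D1:**
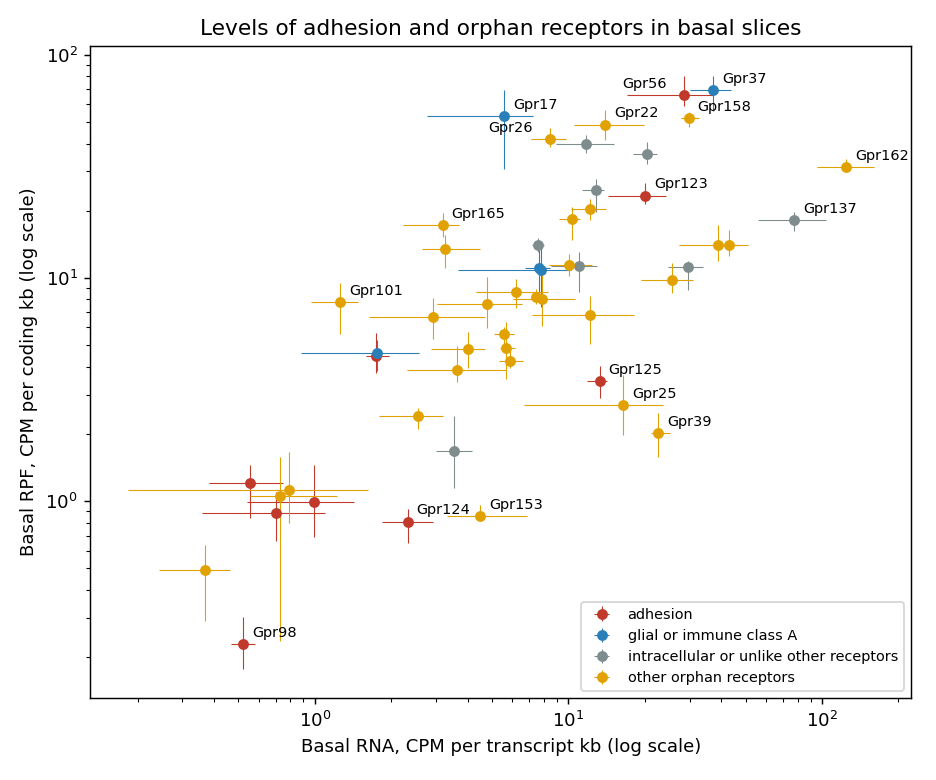
Basal RNA level in CPM per transcript kb (horizontal, log scale) against basal RPF level in CPM per coding kb (vertical, log scale) of receptors expressed in both assays and matched to a transcript. Points are means, bars run from the lowest to the highest library (4 RNA, 5 RPF), and colour gives the class. Gpr162 and Gpr137 lie far to the right of receptors with like RPF levels, and Gpr17, Gpr101 and Gpr165 lie to the left.

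Gpr17 varied with the replicate more than most receptors did. It had 51.1, 60.9, 66.7, 29.4 and 46.2 CPM in basal RPF replicates 1 to 5, and 64.6, 63.5, 66.7, 32.4 and 51.5 CPM after DHPG. Its RNA had 31.0, 37.7, 32.7 and 14.4 CPM in basal replicates 1 to 4. Replicate 4 was lowest in all 4 groups of libraries, as was the oligodendrocyte marker sum. Gpr37 had 97.3, 126, 140, 113 and 130 CPM in basal RPF replicates 1 to 5 and 112, 133, 134, 135 and 134 CPM after DHPG, so that replicate 1, not 4, was lowest. In RNA, Gpr37 was lowest in basal replicate 4, at 150 CPM against 186 to 217 CPM in the other basal libraries. Gpr56 RNA was lowest there too, at 61.3 CPM against 91.0 to 134 CPM. Its basal RPF level in replicate 4 (119 CPM) lay within the 118 to 161 CPM of the others. The excitatory neuron marker sum was also lowest in basal RNA replicate 4, at 4172 CPM against 4704 to 6466 CPM. In basal RPF that sum was highest in replicate 4 (5979 CPM). Neuronal Gpr158 varied little, with 182, 195, 195, 181 and 168 CPM in the basal RPF libraries.

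**Figure D2:**
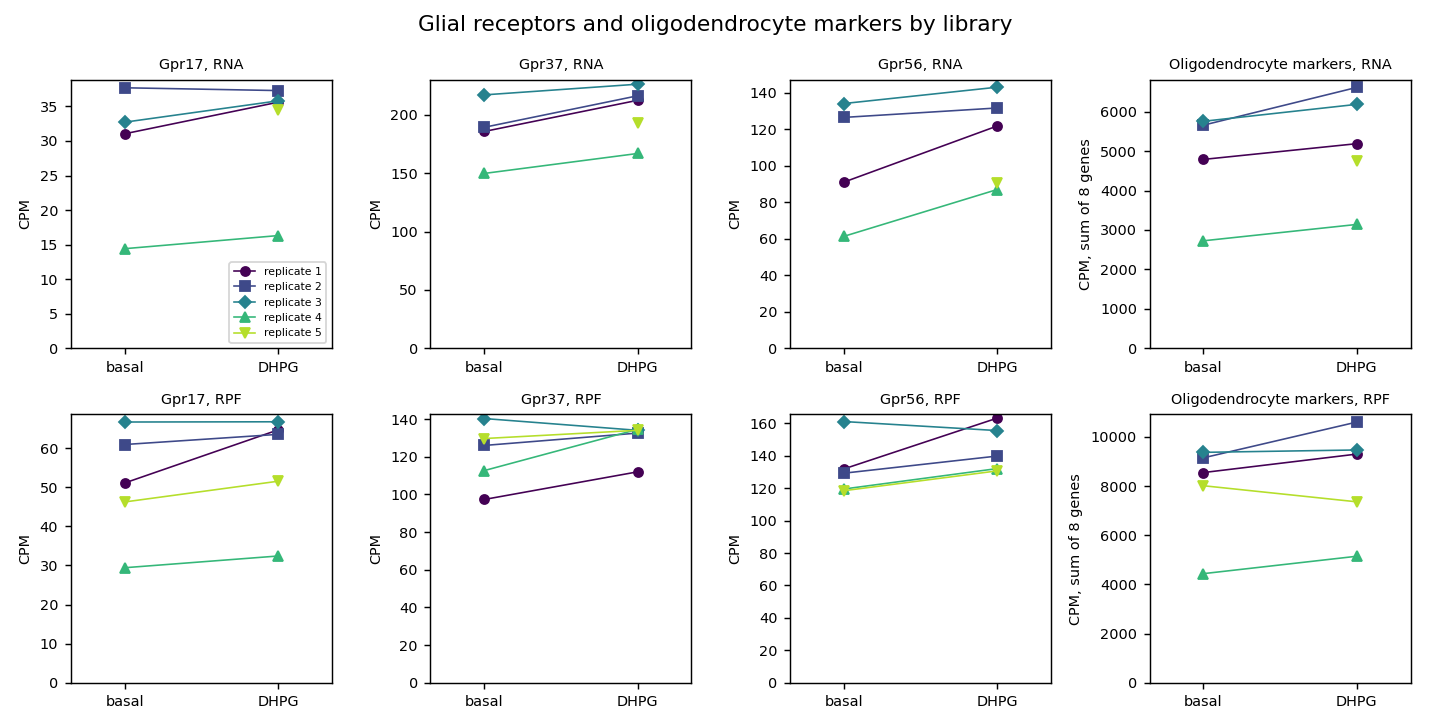
CPM of Gpr17, Gpr37 and Gpr56 and the summed CPM of 8 oligodendrocyte markers in each RNA (top) and RPF (bottom) library, with lines joining basal and DHPG libraries of 1 replicate. Gpr17 follows the marker sum, both lowest in replicate 4 (29.4 CPM and 4438 CPM in basal RPF), and DHPG RNA replicate 5 has no line because it has no basal partner.

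Of the adhesion receptors, 10 of 16 were tested in RNA and 10 in RPF, 9 in both. After Gpr56 came Gpr123, with 23.4 ± 2.0 CPM per coding kb in basal RPF (SD, n = 5). The other 7 tested in both had 4.46 or less. Gpr116, a receptor of lung epithelium and vessels, had 4.46 ± 0.760 CPM per kb, and Gpr125 had 3.45 ± 0.508. Gpr133 (1.21 ± 0.287), Gpr115 (0.986 ± 0.311), the Schwann cell myelination receptor Gpr126 (0.883 ± 0.174) and Gpr124 (0.808 ± 0.130), which vessels need to grow into the brain, had overlapping SDs. Gpr98, the very large receptor of hair cell and retinal links, had 0.228 CPM per kb over a coding sequence of 90 exons. The relatives outside the rule ranged widely. Bai1, Bai2, Bai3, Celsr2 and Lphn3 each had 37.7 to 40.5 CPM per kb in basal RPF, Lphn1 had 55.5, and the astrocyte receptor Gpr37l1 had 223. Celsr1 (0.649), Celsr3 (1.64), Eltd1 (2.25), Cd97 (2.90) and Emr1 (3.26) were low, and Gpr56 lay above every Bai, Celsr and Lphn gene.

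Among other members, the Golgi and lysosomal proteins Gpr107 (39.8 ± 3.44 CPM per coding kb), Gpr155 (35.8 ± 4.05) and Gpr89 (24.8 ± 3.46) were well measured in basal RPF. Gpr162, a class A orphan, had 31.5 ± 1.56 CPM per kb in RPF and the highest RNA level of any member, at 124 ± 27.5 CPM per transcript kb (SD, n = 4). Gpr12, Gpr3 and Gpr6, receptors that raise cyclic AMP without a ligand, were all tested in both assays, and Gpr12 was the highest of the group, at 18.3 ± 2.28 CPM per kb in RPF. Gpr85 led the conserved brain receptors Gpr27, Gpr85 and Gpr173, at 20.4 ± 2.11 CPM per kb. Gpr137 (18.2 ± 1.34), Gpr165 (17.3 ± 1.84) and Gpr137c (14.1 ± 0.884) followed. The widest basal RPF range among members tested belonged to Gpr21, with 1.55, 0.426, 1.54, 0.233 and 1.43 CPM in replicates 1 to 5, a ratio of 6.65 between highest and lowest. Its counts were only 10, 7, 34, 2 and 18. Gpr1 (ratio 3.92), Gpr52 (2.56) and the adhesion receptor Gpr64 (2.36) were next, all at 2.48 CPM or less. Over all members tested, the median ratio was 1.42, against 1.28 over all genes tested.

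The ratio of RPF to RNA, called translation efficiency (TE), was low for a larger share of receptors than of genes. Basal TE was the log2 RPF level per coding kb less the log2 RNA level per transcript kb in each of basal replicates 1 to 4, set to 0 at the median of all genes, and a gene was called when it lay over 2-fold from that median (limma's treat, two-sided, adjusted p under 0.05). Of 53 receptors tested, 14 (26.4%) lay below, beside 14.4% of all 12630 genes, and 4 (7.55%) lay above, beside 18.4%. The median receptor had a basal TE of -0.58, and the medians in replicates 1 to 4 were -0.43, -0.81, -0.66 and -0.14. In all 4 replicates, 25 receptors (47.2%) were below the median gene, beside 40.6% of all genes, and 11 (20.8%) above, beside 40.8%. No test of the list was made, and these shares describe these receptors.

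**Figure D3:**
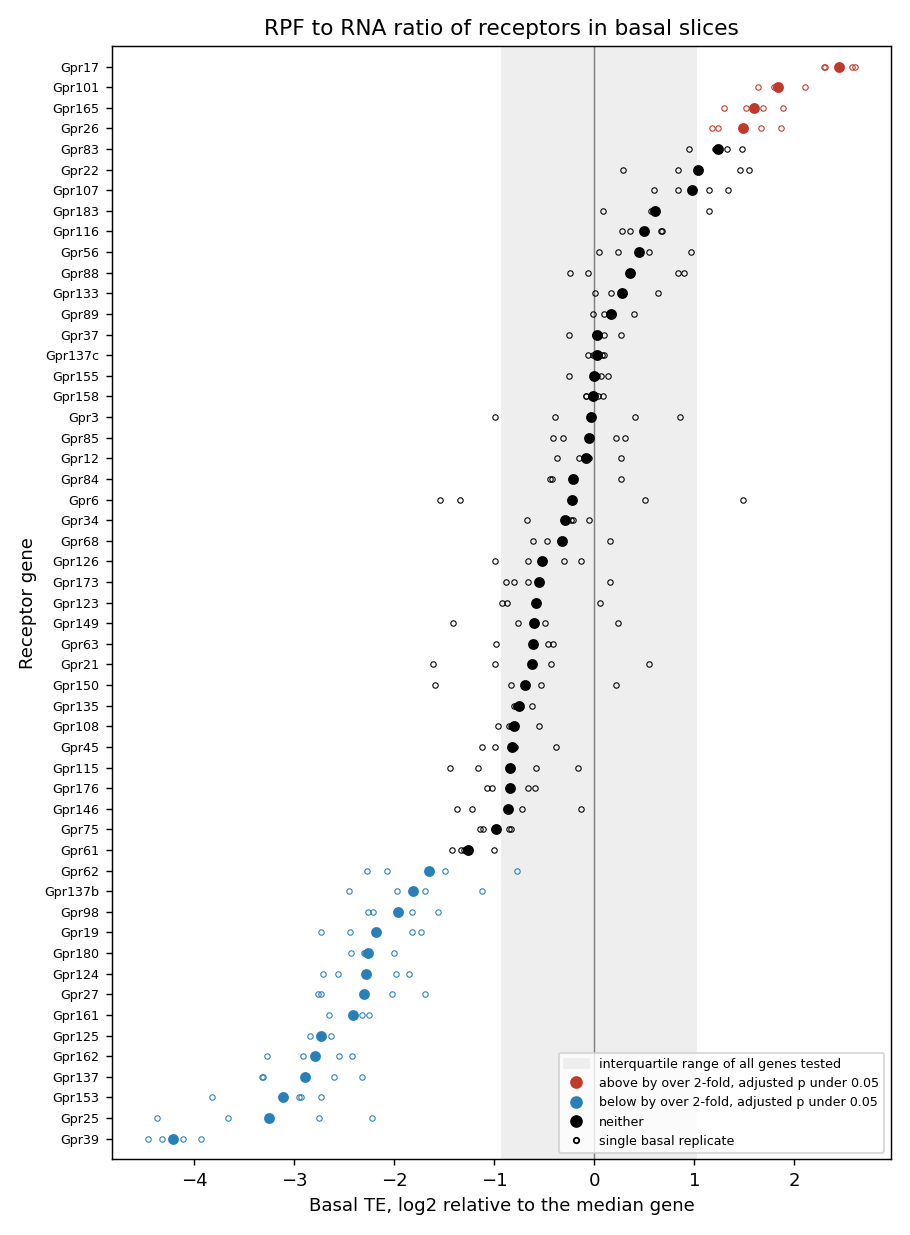
Basal TE (log2, relative to the median gene) of the 53 receptors tested, with filled points for the mean, open points for each of 4 replicates and a grey band for the interquartile range of all genes tested (-0.92 to 1.02). The 14 receptors called below run from Gpr62 at -1.65 to Gpr39 at -4.21, and the 4 called above from Gpr26 at 1.49 to Gpr17 at 2.45.

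Gpr17 had the highest basal TE, at 2.31, 2.29, 2.58 and 2.61 in replicates 1 to 4 (mean 2.45, standard error 0.08, limma adjusted p = 6.4e-05). Its replicate 4 value was not low, since RNA and RPF levels were both lower there. Gpr101, a receptor that signals through Gs and is known from pituitary growth disorders, followed at 2.11, 1.80, 1.82 and 1.64 (mean 1.84, standard error 0.10, limma adjusted p = 0.000906). Gpr165 had 1.30, 1.69, 1.52 and 1.89 (mean 1.60), and Gpr26 had 1.66, 1.18, 1.24 and 1.87 (mean 1.49, limma adjusted p = 0.0259). Gpr26 is the least secure of these. Its call was lost without replicate 1 (1.44, limma adjusted p = 0.0926) or replicate 4 (1.37, 0.0806), and with no correction for length its value was -1.09, its transcript having 11571 bases and its coding sequence 1011. Without a length correction 0 receptors were called above, against 6.77% of all genes.

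The lowest basal TE belonged to Gpr39, a zinc-sensing receptor, at -3.93, -4.11, -4.32 and -4.46 in replicates 1 to 4 (mean -4.21, standard error 0.12, limma adjusted p = 1.12e-05). Its RNA had 59.6, 67.4, 58.8 and 56.9 CPM in the basal libraries while its RPF level lay between 2.07 and 3.26 CPM. Of its 2691 transcript bases, 1202 overlap exons of Lypd1 on the opposite strand, a gene at 57.3 to 87.7 CPM in basal RNA with a basal TE of 2.57. The use of strand in the counting is not given in the sources used here, so Gpr39 RNA cannot be told apart from Lypd1 RNA. Gpr25 (-2.75, -3.66, -4.37 and -2.22), Gpr153 (-2.95, -2.73, -3.82 and -2.93) and Gpr137 (-2.32, -3.31, -3.32 and -2.60) came next, and all of their replicates lay far below the median gene. Gpr25 is overlapped over 448 bases by an antisense transcript that is not a row of the tables. Gpr137, a lysosomal protein linked to mTORC1, had 104, 169, 192 and 113 CPM in basal RNA but only 18.3 to 22.4 CPM in basal RPF. Gpr162 combined the highest RNA level with a basal TE of -2.79. The rest of the 14 were the adhesion receptors Gpr125 (-2.73), Gpr124 (-2.28) and Gpr98 (-1.96), the ciliary receptor Gpr161 (-2.41), Gpr27 (-2.30), Gpr180 (-2.26), Gpr19 (-2.18), Gpr137b (-1.81) and Gpr62 (-1.65). Without the members whose exons overlap another gene of the tables, 11 of 45 were below (24.4%, against 14.4% of all genes).

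Of the 9 adhesion receptors with a basal TE, 3 were called below, 0 above, and the median was -0.58, where 14.4% of all genes were called below and 18.4% above. The relatives outside the rule were lower still in this measure: 10 of 17 were called below, 0 above, with a median of -1.42. Bai2 stood at -3.72, Celsr3 at -3.68 and Celsr1 at -3.62, whereas vascular Eltd1 stood at 0.00. Like the members, the proteins that bind the receptors were spread widely. Of 18 ligands (teneurins, Flrt proteins, C1q-like proteins and others), 3 were called below and 1 above. Of 20 arrestins, kinases and adaptors, 3 were below and 1 above. In both lists the share below was near the 14.4% of all genes, and the share above was under the 18.4% of all genes. The well-measured receptors Gpr37 (0.03), Gpr158 (-0.01) and Gpr155 (-0.00) lay at the median gene.

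Receptor genes differ from most genes in build. Of the 53, 23 (43.4%) have a single coding exon, against 6.10% of all genes tested, but the median basal TE of those 23 (-0.55) was close to that of the 30 with several coding exons (-0.59), and 3 of the 14 called below have a single coding exon. An ATG upstream of the start codon occurs in the 5′ UTR of 41 of 53 receptors (77.4%), against 51.0% of all genes. It was present in 8 of the 14 called below (57.1%, against 58.1% of all genes called below) and in 2 of the 4 called above (against 44.4%). Of the 35 not called, 31 had it (88.6%, against 51.4%). The median 5′ UTR was longer in the 53 receptors, at 322 bases against 179 in all genes. It had 132 bases in the 14 called below, 378.5 in the 4 called above and 414 in the 35 not called. What part this length has in the shares with an upstream ATG was not tested. Genes without an annotated 5′ UTR, Gpr25 and Gpr27 among the 14, were counted as having no such ATG. The median 3′ UTR had 415 bases in the 14 called below, 3788.5 in the 4 called above and 1642 in the 35 not called. For all genes these medians were 523.5, 2108.5 and 960. The 3′ UTR is part of the transcript length that RNA levels are divided by, and its part in basal TE was not tested. The bases around the start codon are shown for 3 receptors near each end of the basal TE order, since ribosomes start best where the third base before the ATG is a purine and the base after it is G. They run 5′ to 3′ from 6 bases before the ATG to 1 after it, with the start codon in capitals. Gpr17, the highest, is not shown, and Gpr25 has no annotated 5′ UTR. They were read from GENCODE transcripts on GRCm38 (mm10). High basal TE is held by the first 3 and low basal TE by the last 3.
Gpr101 (chrX:57496668-57503757, minus strand): ttcaccATGc
Gpr165 (chrX:96713441-96719388, plus strand): actgggATGg
Gpr26 (chr7:131966460-131994405, plus strand): cgcaccATGa
Gpr137 (chr19:6938057-6942480, minus strand): cttgacATGg
Gpr153 (chr4:152274232-152285337, plus strand): tgcaccATGa
Gpr39 (chr1:125676995-125873862, plus strand): ttcctcATGg
A purine stood at the third base before the ATG in 5 of these 6, in all but Gpr39. It also stood there in 4 of the 4 called above, Gpr17 included, against 88.9% of all genes called above. Among receptors with an annotated 5′ UTR it was found in 40 of 50 (80.0%, against 86.1% of all genes), and in 7 of the 12 called below with such a UTR, against 82.7% of all genes called below. The G after the ATG went the other way, in 9 of those 12 (75%, against 53.6% of all genes called below) and in 1 of the 4 called above (against 50.8%). With 12 receptors these shares are a description, and whether they bear on TE was not tested.

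No receptor passed the thresholds for DHPG against basal. In RNA, 0 of 57 receptors passed an adjusted p of 0.01 (edgeR, quasi-likelihood, blocked by replicate), beside 1 of 12935 genes (0.00773%). In RPF, 0 of 59 passed an adjusted p of 0.05, beside 29 of 13208 genes (0.22%). In TE, tested as the interaction of assay and treatment, 0 of 54 passed, beside 0% of 12691 genes. DESeq2 with the block also called 0 receptors in RNA and in RPF, where it left 58 of 59 without an adjusted p. At an unadjusted p under 0.05 there were 4 receptors in RNA (7.02%, against 8.02% of all genes), 6 in RPF (10.2%, against 10.8%) and 1 in TE (1.85%, against 6.69%), so the shares were near or under those of all genes. The median standard error of a receptor's log2 fold change was 0.12 in RNA, 0.10 in RPF and 0.15 in TE, larger than the 0.10, 0.06 and 0.11 of all genes.

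Most log2 fold changes were small and above 0. In RPF, 42 of 59 receptors (71.2%) had a log2 fold change above 0, against 51.4% of all genes, with a median of 0.05 against 0.00. The medians in the 5 pairs were 0.05, 0.11, 0.02, 0.04 and 0.04. In RNA, 39 of 57 (68.4%) were above 0, against 52.1%, with a median of 0.06 against 0.01, and the 4 pairs had 0.07, -0.02, 0.01 and 0.18. The RNA median thus rests on pairs 1 and 4: it was 0.01 without replicate 4 and 0.03 without replicate 1. All 6 receptors with an unadjusted p under 0.05 in RPF were on the higher side (10.2%, against 6.55% of all genes), as were 3 of the 4 in RNA (5.26%, against 5.2%) and the 1 in TE (1.85%, against 3.08%). Moving up in every pair was no more frequent than among all genes in RNA, with 5 receptors (8.77%, against 8.67%). In RPF it was seen for 4 receptors (6.78%, against 5.16%), and 0 moved down in every pair, against 4.73% of all genes. By class, 8 of 8 intracellular or unlike receptors, 7 of 10 adhesion receptors and 19 of 27 other class A receptors were above 0 in RPF.

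**Figure D4:**
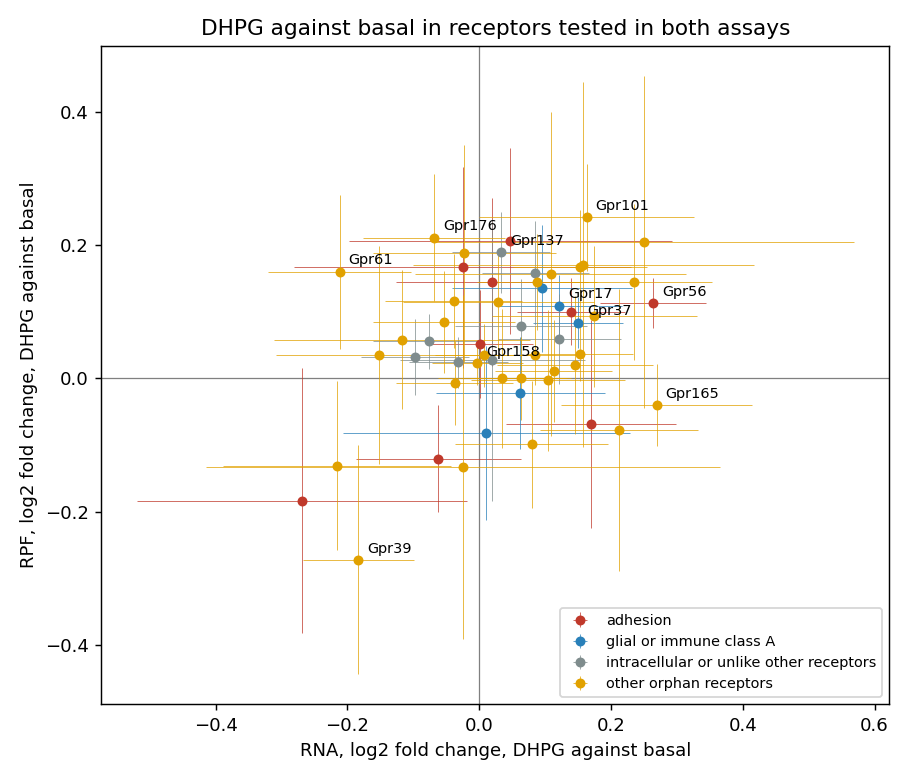
Log2 fold change of DHPG against basal in RNA (horizontal) and RPF (vertical) for the 54 receptors tested in both, with bars of 1 standard error. Most points lie above the horizontal line at 0 and within 0.3 of it, and none passed the threshold of either assay.

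Gpr56 came closest in RNA and was among the closest in RPF. Its RNA had 91.0, 127, 134 and 61.3 CPM in basal replicates 1 to 4 and 122, 132, 143 and 87.0 CPM in the DHPG libraries of the same replicates. It was higher in 4 of 4 pairs, though the groups overlapped, with a log2 fold change of 0.26 (standard error 0.08, edgeR adjusted p = 0.536). Its RPF level was 132, 129, 161, 119 and 118 CPM in basal and 163, 140, 155, 132 and 131 CPM in DHPG libraries, higher in 4 of 5 pairs (0.11, standard error 0.04, edgeR adjusted p = 0.226). Without replicate 3 the RPF value was 0.17 and passed (edgeR adjusted p = 0.0322). With ComBat followed by DESeq2, Gpr56 passed in both assays, at 0.27 in RNA and 0.11 in RPF (DESeq2 adjusted p = 0.000762 and 0.0108). That setting left 37 of 57 receptors in RNA and 51 of 59 in RPF without an adjusted p. It fitted treatment alone, with no block, after ComBat had removed replicate differences with treatment in its model.

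Gpr137 had the smallest p in RPF. Its levels were 22.4, 18.3, 21.4, 20.1 and 20.3 CPM in basal and 22.4, 22.8, 23.7, 22.6 and 23.8 CPM in DHPG libraries, higher in 5 of 5 pairs by as little as 0.01 in the first (log2 fold change 0.19, standard error 0.06, edgeR adjusted p = 0.209). Its RNA differed by 0.03. Gpr101 had 11.5, 13.9, 11.8, 11.7 and 8.27 CPM in basal and 12.5, 18.99, 12.97, 12.1 and 10.5 CPM in DHPG libraries (0.24, standard error 0.08, edgeR adjusted p = 0.226), with the largest differences in pairs 2 and 5. Gpr17 RPFs differed by 0.11 (standard error 0.05, edgeR adjusted p = 0.373) and Gpr37 RPFs by 0.08 (edgeR adjusted p = 0.419). Gpr26, well measured and steady, was higher in 5 of 5 pairs by 0.02 to 0.05, a fold change of 0.03 that the test did not separate from 0 (edgeR adjusted p = 0.846). Gpr158, with the most RPF counts of any member, differed by 0.02 in RPF (standard error 0.03) and by -0.00 in RNA (standard error 0.07).

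The 4 receptors with the smallest p in RNA after Gpr56 included Gpr37 (0.15, edgeR adjusted p = 0.599), higher in 4 of 4 pairs. Gpr39 RNA, the value that cannot be told apart from Lypd1, was on the lower side (-0.18, edgeR adjusted p = 0.6). Gpr4, a proton sensor of vessels tested in RNA only, had a log2 fold change of 0.43 (standard error 0.20, edgeR adjusted p = 0.608) at 3.27 to 5.98 CPM in basal libraries. In TE the smallest p belonged to Gpr61, a receptor with constant Gs activity, whose RNA was lower in 4 of 4 pairs (-0.21) while its RPF level was higher in 4 of 5 (0.16), an interaction of 0.37 (standard error 0.15, edgeR adjusted p = 0.694). Gpr165 (-0.30), Gpr176 (0.28) and Gpr137 (0.16) followed in TE.

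Markers of other cells were measured in the same comparison. The oligodendrocyte markers had a median log2 fold change of 0.16 in RNA (8 of 8 above 0, 0 called) and 0.11 in RPF (7 of 8 above 0, 1 called, Mag), beside 0.12 and 0.11 for Gpr17 and 0.15 and 0.08 for Gpr37. Microglial markers had a median of 0.10 in RPF (8 of 8 above 0, 0 called) and 0.01 in RNA, and Gpr56 is found in both cell types. Endothelial markers lay on the other side in RPF (median -0.18, 0 of 8 above 0, 0 called) and had a median of -0.14 in RNA (2 of 8 above 0, 0 called). Of the receptors known from vessels, Gpr116 had -0.12 in RPF and -0.06 in RNA, Gpr124 -0.07 and 0.17, and Gpr4 0.43 in RNA. Thalamus markers had the largest median in RPF, 0.37, with 6 of 8 called (0.60 in RNA, 1 of 7 called), and their summed level was 167 to 206 CPM in basal and 167 to 265 CPM in DHPG RPF libraries. What part these cell types have in the receptors' values was not tested.

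Ligands and signalling partners of the receptors showed 0 calls. Of 18 ligands tested in RPF, 13 were above 0 (median 0.04), and Flrt1, a partner of latrophilins, had the smallest p (0.22, edgeR adjusted p = 0.136). Of 20 arrestins, kinases and adaptors, 9 were above 0 (median -0.01), and the receptor-sorting protein Gprasp1 had the smallest p (-0.12, edgeR adjusted p = 0.0908). In RNA the medians were -0.00 for 18 ligands and -0.00 for 21 arrestins, kinases and adaptors, with the smallest p for the Nogo receptor relative Rtn4rl2 (0.24, edgeR adjusted p = 0.583) and for Gprasp2 (-0.24, edgeR adjusted p = 0.536). Of the relatives outside the rule, 18 of 19 were above 0 in RPF (median 0.08, 0 called), and Gpr37l1 had the smallest p (0.11, edgeR adjusted p = 0.123). In RNA 13 of 17 were above 0 (median 0.11, 0 called), and Gprc5c had the smallest p (-0.72, edgeR adjusted p = 0.555).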

How the data were processed

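RNA-seq and ribosome profiling libraries (19, replicates 1 to 5) were analysed. The authors removed rRNA and tRNA reads with Bowtie2, aligned the rest to mm10 with TopHat2, collapsed reads sharing a molecular identifier and ran RSEM. The tables they deposited hold its expected counts, whole and unnormalized. For RPFs these cover coding sequences less 30 bases at each end, for RNA whole transcripts. Columns of replicates 6 to 8 (12 columns) were not used.

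Calculations used R 4.3.3 with edgeR 4.0.16 (TMM, filterByExpr, quasi-likelihood test, Benjamini-Hochberg over all genes tested), limma 3.58.1, DESeq2 1.42.0 and sva 3.50.0. Adjusted p had to be under 0.01 for RNA and under 0.05 for RPF and TE. Log2 CPM used a prior count of 2. Replicate number was a block, since deviations of same-numbered libraries correlated at 0.27 to 0.72 in RNA and 0.26 to 0.52 in RPF. Basal RNA replicate 2 (0.27) correlated best with DHPG RNA replicate 3, so RNA pair 2 rests on the number alone. Every other pair correlated best with its own number. Errors are those between replicates, each a pool of slices from 6 mice. Lengths, overlaps and start codons came from GENCODE vM21 (GRCm38): 72 receptors matched by symbol, 16 by older symbol, and Gpr52 was not matched.

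The members and lists were chosen with earlier results of these data known. Values were given for members past a threshold, the 8 adhesion and 14 other members highest in basal RPF per kb, the 4 highest and 4 lowest in basal TE, the 4 smallest p per assay and the 4 widest basal RPF ranges. Others were named to account for them, and Gpr26 and Gpr158 pairs, Lypd1, Mag and named relatives were chosen after their values were seen. Marker lists of astrocytes, striatum and habenula were also computed: their RPF medians after DHPG were 0.07, 0.05 and 0.01, with 0 called. The excitatory neuron median was -0.01. The steps were tested on simulated data. Alternatives were another size factor, no count filter, no block, DESeq2, ComBat (0.5 CPM added, DHPG RNA replicate 5 dropped), other thresholds, other lengths, priors and filters for TE, and each replicate left out.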

Additional observations from a re-analysis of the deposited data

Results flagged for a closer look

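Levels of the 33 named receptors were screened in 126 groups of libraries for a library far from the rest of its group. It was found in 6, and chance gives about 1 in 20 groups, here 6.3. Gpr17 RNA was low in DHPG replicate 4, at 16.3 CPM against 34.5 to 37.3 CPM in the other DHPG RNA libraries, and the oligodendrocyte marker sum was lowest in the same library (3140 CPM). Adhesion receptor Gpr64 was low in basal RPF replicate 4, at 1.05 CPM against 2.23 to 2.48 CPM, with 9 counts. Gpr37 was low in DHPG RPF replicate 1, at 112 CPM against 133 to 135 CPM. Gpr12 RNA was high in DHPG replicate 5, at 28.6 CPM against 21.7 to 23.2 CPM, in the library with no basal partner. Gpr21 RNA was high in basal replicate 1, at 4.41 CPM against 2.01 to 2.12 CPM. Gpr153 was high in basal RPF replicate 5, at 1.75 CPM against 1.498 to 1.55 CPM, with 22 counts.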

How the results depend on the processing

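With no receptor past the thresholds, DHPG calls could only be gained. ComBat followed by DESeq2 gained 1 in RNA and 1 in RPF (Gpr56 both times), where 201 RNAs and 429 RPFs of all genes passed. There 37 receptors in RNA and 51 in RPF had no adjusted p. Leaving out each replicate gave 0 to 1 in RPF and 0 in RNA and TE. Without replicate 2, whose RNA pair rests on the number alone, the smallest edgeR adjusted p of a receptor in RNA was 0.0356. There 22 of all genes passed in RNA, against 1 with every replicate. The cause was not tested. Without the replicate block 0 receptors were called in RNA, RPF and TE, with medians of 0.06, 0.05 and -0.00, and 0, 1 and 0 had an unadjusted p under 0.05. Over the replicates left out, the median ran from 0.01 to 0.11 in RNA, from 0.03 to 0.07 in RPF and from -0.04 to 0.06 in TE, and the RPF count at an unadjusted p under 0.05 from 2 to 11. Gpr137 RNA turned to -0.028 without the block and ran from -0.045 to 0.085 over the replicates left out. For basal TE, 13 to 14 receptors were below and 4 to 5 above over the replicates left out, with medians of -0.65 to -0.46. Of all genes, 11.5% to 14.7% were then below and 16.05% to 18.3% above. Tested against 0 in place of a 2-fold difference, which asks less, 27 of 53 (50.9%) were below and 10 above. Of all genes, 39.4% were below and 39.8% above in that test. Lengths of all exons joined gave a median of -0.97, with 17 below (32.1%, against 16.1% of all genes) and 3 above (against 18.9%). With those lengths Gpr101 (1.27) and Gpr26 (0.92) were not called. No length correction gave 15 below (28.3%, against 7.48% of all genes) and 0 above (against 6.77%). It turned Gpr26 to -1.09 and left Gpr17 at 1.03. DHPG libraries gave 14 below (26.4%, against 16.5% of all genes) and 4 above (against 19.7%). Of 54 receptors expressed in both assays, the range was 53 to 56 over the replicates left out. With at least 20 counts in every basal library, 11 of 42 were below in basal TE (26.2%, against 14.8% of all genes). Leaving out overlapping members was chosen after seeing the data. Depth limits receptors with few RPF counts, such as Gpr21, Gpr1 and Gpr52, with 2 to 34 counts in a basal library.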
